A study of Mus musculus with 16 samples.

Results

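The genes described here carry the gene names of the moving parts of motile cilia. They are all genes in the deposited counts whose symbol is Dnah, Cfap or Spag followed by digits only, or Rsph followed by digits and letters. This gave 59 of the 41193 genes with at least 1 UMI (unique molecular identifier, which stands for 1 captured RNA molecule). The rule reads gene names only. Motile cilia beat by means of the axoneme, a cylinder of doublet microtubules around a central pair. Dynein motors bound to the doublets in an outer and an inner arm (heavy chains are named Dnah) make neighbouring doublets slide, and radial spokes (Rsph) and the central pair apparatus regulate the motors. In the spinal cord such cilia are carried by ependymal cells, which line the central canal and move the cerebrospinal fluid. Spag genes were named for antigens of sperm, whose tail is built on the same plan, and Cfap stands for cilia and flagella associated protein. The names do not fix a function, and 3 of the genes (Spag4, Spag5 and Spag9) are better known for the nuclear envelope, the mitotic spindle and vesicle transport.

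The study dissociated spinal cord tissue from around a cut of the dorsal columns at the cervical level C5, and made a 10x Genomics Chromium 3′ library of each of 16 mice. The knockout mice (Rykfl/fl,GFAPcreERT2, called cKO) and the controls (Ryk+/+,GFAPcreERT2, called WT) both carried the creERT2 recombinase, which the Gfap promoter drives mainly in astrocytes, and were 8 to 10 weeks old. All mice were given tamoxifen, which activates the recombinase, daily for 7 d from 5 d before the operation. Each genotype was taken uninjured (the labels say sham) or with an injury 1 d, 7 d or 14 d old, which makes 8 groups of 2 mice. The values are UMIs per gene in cells that the authors had placed in 17 clusters. Cluster 13 held 271 cells, and the other 16 clusters held 17932. Ependymal cells below are the cells of cluster 13, and other cells are the rest. Levels are in CPM, the UMIs of a gene per 1e6 UMIs of the same cells. These 3′ counts do not scale with the length of a gene, so a level is compared for the same gene between cells and mice. Where genes are listed by level or set against their span, this describes UMIs and not RNA amounts.

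Libraries differed in depth and some stood apart from the rest. WT 1 d replicate 2 held 1 cell with 266 UMIs and was left out. The model takes the remaining WT mouse at 1 d to vary as much as other mice do. The remaining 15 libraries had 536263 to 9008729 UMIs. The lowest median depths, at 414, 421, 414 and 548 UMIs per cell, were those of replicate 1 of WT 1 d, cKO 1 d, WT 7 d and cKO 7 d. These 4 libraries also shared 28 to 115 cell barcodes with each other, against at most 4 for any other pair of libraries. Of all barcodes, 166 occurred in more than 1 library, in 432 cells, 21 of them ependymal. Results are therefore given with and without these libraries or cells where they rest on them. The names of the cells give another condition than the sample titles for 6 mice, all of them replicate 2. The condition column of the authors' cell table gives every mouse the condition of its title, and conditions here follow the titles.

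Ryk, the gene deleted in the cKO mice, was counted in every mouse in the other cells. Uninjured mice had 70.3 and 44.7 CPM in WT and 58.7 and 65.5 CPM in cKO. The WT mouse at 1 d had 74.7 CPM of Ryk, and the cKO mice had 46.3 and 54.2 CPM. WT mice at 7 d had 79.0 and 68.7 CPM, and cKO mice 50 and 82.4 CPM. The mice at 14 d had 50.3 and 68.4 CPM in WT and 66.2 and 69.1 CPM in cKO. The genotypes overlapped, with a log2 fold change of −0.03 (standard error 0.16, adjusted p = 1.0 by edgeR). The GFAP-driven recombinase acts in a part of these cells, and a 3′ tag can lie outside the deleted part. Which exons are deleted is not given in the sources used here, and the counts of Ryk therefore say nothing on whether the labels of genotype are right. Ependymal cells held 0 to 41 Ryk UMIs per mouse.

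Cluster 13 has no cell type in the authors' table, where it is called Unk. The paper lists ependymal cells among its cell types without a cluster number, so the link rests on the markers. Of 13 ependymal markers, 10 had their highest level of all clusters in cluster 13. Foxj1, the transcription factor that turns on the genes of motile cilia, reached 363 CPM in cluster 13, beside 3.72 CPM in other cells. Ccdc153 was at 686 and 0.613 CPM, and Tmem212 at 1047 and 1.36 CPM. The exceptions Tppp3, Vim and Cd24a were higher in oligodendrocytes, fibroblasts and myeloid cells. Choroid plexus cells are also ciliated, and of 4 of their markers Ttr and Kl had 0 UMIs in cluster 13, where 3 counts are 2.61 CPM. Folr1 and Clic6 were highest in cluster 13, at 107 and 6.95 CPM. Of the markers of astrocytes, neurons, oligodendrocytes and their precursors, microglia, other immune cells, endothelial and mural cells, fibroblasts, Schwann cells and red blood cells, 0 were highest in cluster 13. The clusters were made from the same counts, so what follows on ependymal against other cells is a description without a test.

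For this description, UMIs were pooled over the 10 mice with at least 10 ependymal cells. Of the 59 genes, 42 were at least 10-fold higher in ependymal than in other cells, 7 were 2-fold to 10-fold higher and 7 were under 2-fold. The remaining 3, Rsph6a, Spag4 and Spag6, had too few UMIs for a ratio. Over the 56 genes with a ratio the median was 44.0-fold, and over all 15723 genes with one it was 1.04-fold, with 839 (5.34%) at 10-fold or more. In each of the 10 mice, 37 of the 59 genes were higher in ependymal cells. Summed over the 59 genes, the level in ependymal cells ran from 11676 to 21147 CPM (median 16826 CPM, n = 10 mice), and in the other cells of 15 mice from 576 to 970.4 CPM (median 699 CPM). The ranges are far apart. Without the 4 libraries that share barcodes, without the cells whose barcode occurs in several libraries, and as a mean over mice, 42 genes were again at 10-fold or more, and with cells thinned to 1000 UMIs there were 43.

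**Figure D1:**
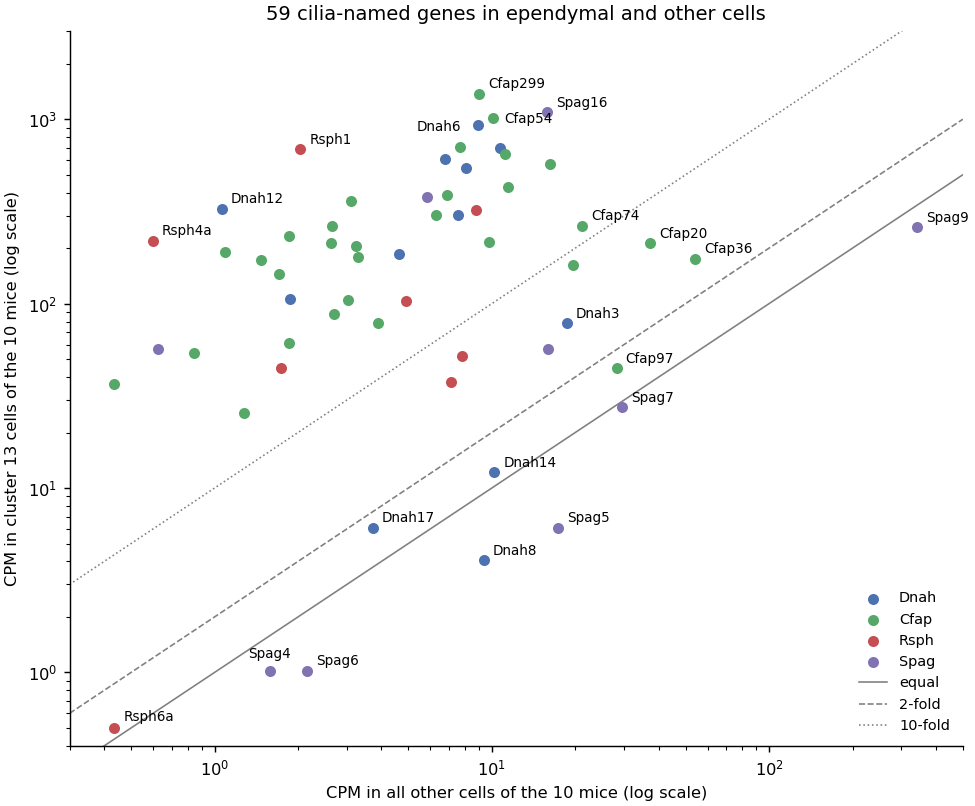
Level of each of the 59 genes in ependymal cells (cluster 13, vertical axis) against all other cells (horizontal axis), as CPM pooled over the 10 mice with at least 10 ependymal cells, on log axes, with lines at equal, 2-fold and 10-fold levels. Of the genes, 42 lie above the 10-fold line, Rsph4a (367-fold) and Rsph1 (337-fold) farthest, and Rsph6a, with 0 UMIs in ependymal cells, is drawn at 0.5 CPM.

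Outer-arm dyneins give most of the power of the beat. Dnah5 (ENSMUSG00000022262.8, chromosome 15 of mm10, 28203752 to 28472052), whose loss in people causes primary ciliary dyskinesia, ran from 369 to 725 CPM over the 10 mice in ependymal cells (median 518 CPM) and from 3.22 to 12.3 CPM in other cells. Dnah9 ran from 263 to 874 CPM (median 656 CPM), with at most 19.5 CPM in other cells. Dnah11, needed for left-right asymmetry, ran from 413 to 916 CPM (median 623 CPM), with at most 11.1 CPM in other cells. For all 3 the lowest ependymal value lay above the highest value in other cells, and the pooled folds were 67.6, 65.4 and 90.4. Dnah8 and Dnah17, the outer-arm chains of sperm tails, were different. Dnah8 had 4 UMIs in ependymal cells of the 10 mice (4.06 CPM) against 9.35 CPM in other cells, and Dnah17 had 6 UMIs (6.10 CPM) against 3.72 CPM. At so few UMIs their ratios of 0.435 and 1.64 are imprecise, and both genes overlap another protein-coding gene on the opposite strand (Glo1 and Pgs1).

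Inner-arm dyneins shape the bend of the cilium. Dnah6 was at 817 ± 318 CPM in ependymal cells (SD, n = 10 mice, 263 to 1221 CPM) and at most 13.2 CPM in other cells, 104-fold in the pooled UMIs. Dnah12 was at 366 ± 155 CPM (SD, n = 10, 126 to 632 CPM), and in other cells it never passed 1.82 CPM, which made its fold, 309, the highest of the dyneins. Dnah2 ran from 176 to 641 CPM, Dnah10 from 50.2 to 327 CPM and Dnah1 from 35.4 to 178 CPM, with folds of 39.8, 40.0 and 56.4. In each mouse all 5 genes were higher in ependymal cells. Dnah3 was also higher in each mouse, at 78.3 against 18.6 CPM, but by 4.22-fold. Dnah14, at 12.2 CPM (12 UMIs) against 10.2 CPM, was higher in ependymal cells of 1 of 10 mice, cKO 7 d replicate 2. Without that mouse its fold was 0.760 in place of 1.20, and at so few UMIs the ratio is imprecise. Over the 12 dynein heavy chains the median fold was 48.2, and 8 of them were at 10-fold or more.

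Radial spokes carry signals from the central pair to the dyneins, and 2 genes of the spoke head, Rsph1 and Rsph4a, had the highest folds of the pooled UMIs. Rsph1 (ENSMUSG00000024033.10, chromosome 17, 31255019 to 31277383) was at 659 ± 203 CPM in ependymal cells (SD, n = 10, 369 to 1105 CPM) and at 0 to 3.10 CPM in other cells. Rsph4a (ENSMUSG00000039552.14, chromosome 10, 33905111 to 33916021), a core piece of the head, ran from 105 to 410.4 CPM and from 0 to 1.33 CPM. From pooled UMIs, Rsph1 was 337-fold and Rsph4a 367-fold higher in ependymal cells. The order depends on the measure, as with thinned cells Rsph1 was at 196, Rsph4a at 514 and the dynein Dnah12 at 522. Over the 7 spoke genes with a ratio the median was 25.7-fold. Rsph9 and Rsph10b, also of the head, ran from 52.7 to 211 CPM and from 100.4 to 479 CPM, with folds of 20.9 and 36.5, though UMIs of Rsph10b cannot be told apart from those of Pms2 where the genes overlap on the same strand. The testis form of Rsph4a, Rsph6a, had 0 UMIs in cluster 13 and 21 in other cells. The stalk genes Rsph3a and Rsph3b are near-identical copies that share reads, so each is uncertain, and they were at 37.6 and 51.8 CPM against 7.12 and 7.83 CPM. At the base of the spokes, Cfap61 ran from 158 to 701 CPM and Cfap206 from 128 to 301 CPM, with folds of 56.4 and 118.

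The central pair apparatus was covered by 8 of the genes. Spag16 (ENSMUSG00000053153.14, chromosome 1, 69826970 to 70725132) was at 1201 ± 446 CPM in ependymal cells (SD, n = 10, 678 to 1860.3 CPM) and at 2.60 to 26.2 CPM in other cells. Its partner Spag17 ran from 151 to 875 CPM (median 383 CPM) and from 0 to 8.96 CPM. Cfap54 (ENSMUSG00000020014.17, chromosome 10, 92775619 to 93081618) was at 1121 ± 307 CPM (SD, n = 10, 672 to 1657 CPM), Cfap46 at 669.9 ± 260.0 CPM and Cfap69 at 421 ± 160.4 CPM. The folds of these 5 genes were 69.0, 64.5, 101, 35.4 and 37.6, and Cfap74 and Cfap221 followed with 12.5 and 84.9. Spag6 was the exception, with 1 UMI in ependymal cells and 116 in other cells. Its near-identical copy Spag6l, whose symbol the rule leaves out, was at 348 against 4.16 CPM, and how UMIs were divided between the copies is uncertain.

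Adaptors and tethers hold the inner dyneins on the doublets. The tether pair Cfap43 and Cfap44 was at 702 ± 187 and 721 ± 231 CPM in ependymal cells (SD, n = 10 mice) and at most 20.4 and 11.8 CPM in other cells, with folds of 57.7 and 92.0. UMIs of Cfap43 may include those of Itprip, which overlaps it on the same strand. The adaptors Cfap57, Cfap73 and Cfap100 had folds of 34.4, 84.2 and 22.2 at lower levels (105, 36.6 and 217 CPM). Among the inner proteins of the doublet microtubules, which stiffen them from inside, Cfap161 had the highest fold (176, at 191 against 1.09 CPM), and Cfap45, Cfap52, Cfap53 and Cfap126 lay between 32.9 and 81.0. Cfap20, at 212 against 37.3 CPM, was 5.69-fold higher. Of the factors that assemble dynein arms in the cytoplasm, 3 carry these names, Cfap300, Cfap298 and Spag1, with folds of 20.1, 8.16 and 3.58.

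A further 12 genes were given no place in the axoneme here. Cfap299 (ENSMUSG00000057816.7, chromosome 5, 98329304 to 98802047) was at 1636 ± 622 CPM in ependymal cells (SD, n = 10, 653 to 2599 CPM) and at 0 to 14.2 CPM in other cells, 153-fold in the pooled UMIs. UMIs of Cfap299 may include those of genes that overlap it on the same strand, among them the protein-coding Gm11111. Cfap65 and Cfap70 were at 361 and 232 CPM with folds of 116 and 125, and Cfap47, Cfap58, Cfap77, Cfap99, Cfap157 and Spag8 had folds between 19.9 and 98.5. Cfap36, at 175 against 54.1 CPM, was 3.23-fold higher. Cfap97 and Spag7 were at about the level of other cells, with 44.7 against 28.2 CPM and 27.4 against 29.4 CPM, and were higher in ependymal cells of 6 and 5 of the 10 mice. Of the genes that share only the name, Spag9, a scaffold of JNK signalling and vesicle transport, was at 260.2 CPM in ependymal and 343 CPM in other cells, and lower in ependymal cells of 9 mice. Spag5 was at 6.10 against 17.3 CPM, and Spag4 had 2 UMIs in cluster 13.

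Most ependymal cells held UMIs of many of the genes at once. The median cell of cluster 13 had UMIs of 14 of the 59 genes (at most 53), and 85.2% of the cells had at least 5, against a median of 1 gene and 7.94% of other cells. Median depths were 1707 and 1168 UMIs. With each cell thinned to 1000 UMIs, which left 176 ependymal and 9877 other cells, the medians were 12 genes and 1 gene, and 84.7% and 0.314% of cells had at least 5. The gap between the classes of cells is thus as wide at equal depth. Cfap299 was found in 71.6% of ependymal and 1.99% of other cells (64.2% and 0.972% when thinned), and Spag16 in 69.4% and 3.48% (58.0% and 1.82%). Spag9 shows the other case, at 41.7% and 38.8% unthinned and 21.6% and 27.6% thinned. The part of free RNA in the UMIs of other cells was not tested.

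Other genes of the axoneme and of its assembly followed the same division. Of 46 further axonemal genes, 42 were at 10-fold or more, with a median of 64.3-fold. Those with the highest levels were the central apparatus genes Spef2 (785 ± 163 CPM in ependymal cells, SD, n = 10, 72.2-fold) and Hydin (631 ± 167 CPM, 93.7-fold), and Enkur, an inner protein of the doublets (606 ± 239 CPM, 183-fold). The inner-arm dynein Dnah7b (473 ± 173 CPM, 13.4-fold) has near-identical copies in Dnah7a and Dnah7c, and its value is uncertain. Of 11 factors of dynein assembly, 8 were at 10-fold or more (median 57.2-fold). Intraflagellar transport, which builds primary and motile cilia alike, was different, with 2 of 21 genes at 10-fold or more and a median of 5.05-fold. Of 14 regulators of ciliogenesis 4 were (median 4.86-fold), among them Foxj1 at 99.0-fold. Rfx3, a transcription factor of ciliary genes, was at 527 ± 145 CPM in ependymal cells (SD, n = 10) and 4.86-fold higher than in other cells. Of 16 genes of the cell cycle 0 were at 10-fold or more, with 7 too low for a ratio and a median of 0.924-fold.

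By cluster, the summed level of the 59 genes was 16681 CPM in cluster 13 and between 392 and 1326 CPM in the 16 others, and 49 of the genes were highest in cluster 13. The neurons of Cluster 3 had the highest sum of the others, and were the highest of these 16 clusters for 35 of the genes. Some genes had a level of their own elsewhere, and the following 5 were chosen after their values were seen. Dnah5 was at 111 CPM in oligodendrocyte precursors (Cluster 11) and 4.41 CPM in the remaining other cells, higher in 13 of 14 mice, and found in 16.2% and 1.14% of the cells (8.46% and 0.471% when thinned, median depths 1000 and 1173 UMIs). Cfap100, an inner-arm adaptor, was at 303 CPM in Schwann cells (Cluster 15) against 4.75 CPM, in 5 of 5 mice, which is above its ependymal level of 230.3 CPM. It was found in 31.9% and 1.21% of those cells (21.7% and 0.525% when thinned, median depths 2571 and 1156 UMIs). Dnah3 was at 70.9 CPM in endothelial cells (Cluster 1) against 6.28 CPM, in 15 of 15 mice. Cfap74 in the microglia of Cluster 6 (94.6 against 15.4 CPM, 13 of 14 mice) and Dnah14 in the astrocytes of Cluster 7 (44.4 against 6.68 CPM, 13 of 15 mice) were further cases. Shares of cells with a UMI of ependymal markers were also taken, over a set of markers not named here. They cannot be read as shares for all 13 markers, of which Vim alone was found in 20.1% of other cells. The shares were 3.88% of the precursors with a UMI of Dnah5 and 1.10% of all precursors. For Dnah3 in endothelial cells the shares were 1.43% and 0.428%, for Dnah14 in astrocytes 0.909% and 0.395%, for Cfap74 in microglia 0.417% and 0.304%, and for Cfap100 in Schwann cells 0% and 0%. The share among cells with a UMI of their gene was the larger in 4 of the 5 cases, on 1 to 6 cells each. This difference was not tested, and the cells were not matched for depth. The part of ependymal RNA was not tested.

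**Figure D2:**
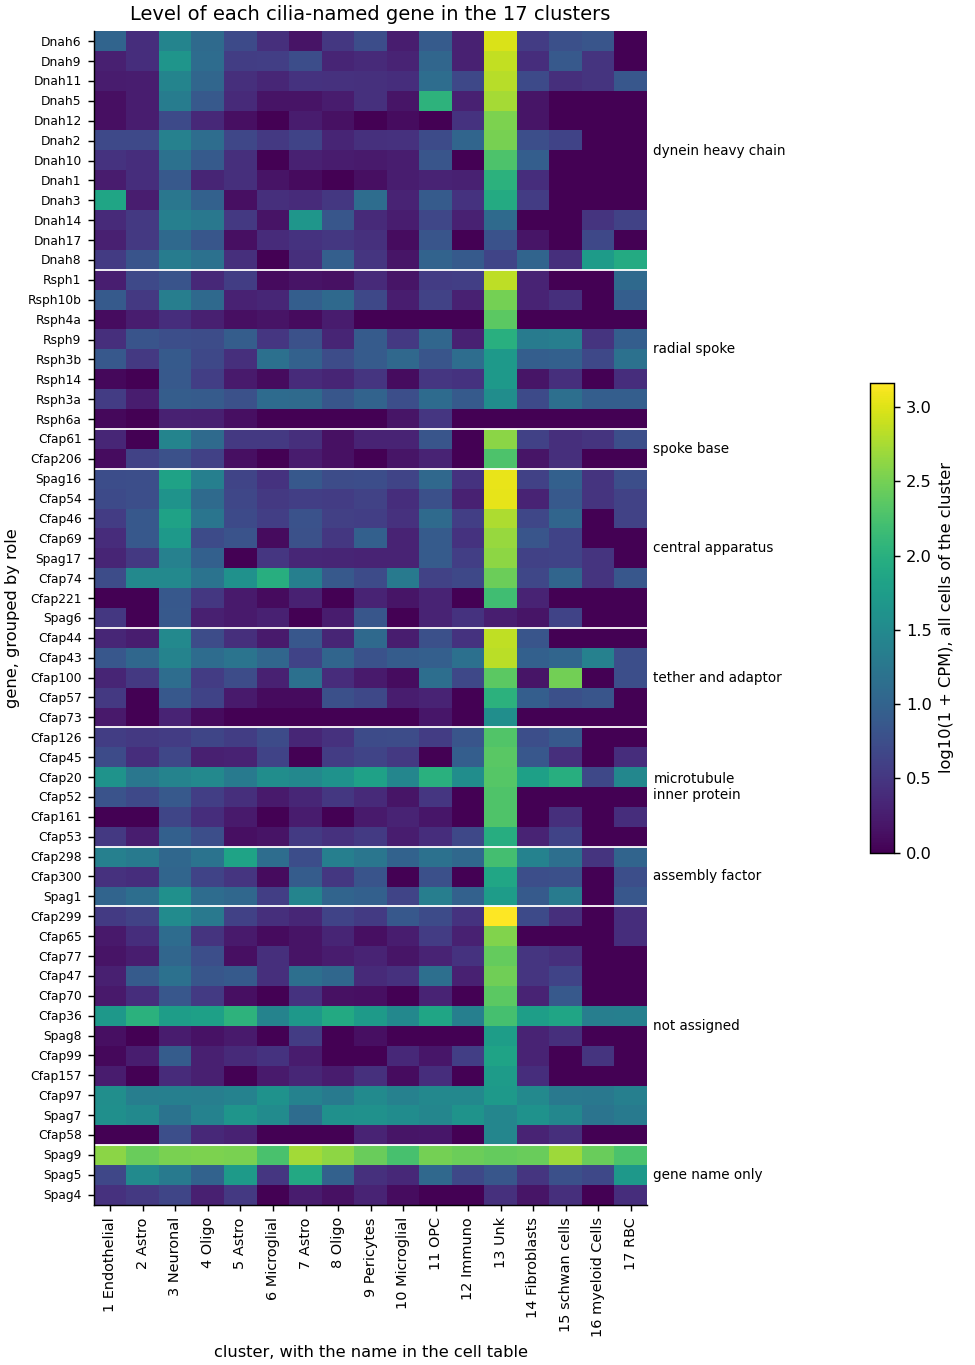
Level of each gene in each of the 17 clusters, as pooled CPM on a log colour scale, with the genes in order of their role. The column of cluster 13 stands out for 49 genes, and Dnah5 in oligodendrocyte precursors (111 CPM) and Cfap100 in Schwann cells (303 CPM) are high outside it.

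The genes are spread over the genome. Of the 59 symbols, 58 were found in a GENCODE annotation of mm10 (Cfap47 was not), on 18 chromosomes with at most 8 on 1 of them (chromosome 11). Their genomic span ran from 2.26 kb (Spag8) to 898 kb (Spag16), with a median of 57.8 kb. Across the 58 genes the level in ependymal cells rose with the span (Spearman's rho 0.501), and across the 41 annotated genes at 10-fold or more rho was 0.659. Genes are not independent replicates, and all points share the same cells. With the length of the exons in place of the span, the values were 0.250 and 0.520. Cfap299 has exons of 1448 bases in a span of 473 kb, whereas Rsph1, with exons of 1372 bases, spans 22.4 kb. Another gene overlaps 39 of the 58 genes, a protein-coding gene in 16 cases. In 11 of the 39 a gene overlaps on the same strand, where UMIs of the genes cannot be told apart if the overlap is read.

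Regulatory factors of the RFX family and Foxj1 bind promoters of ciliary genes, so the 250 bases before each start were searched on both strands. The RefSeq table of promoters for GRCm38.p6 held 47 of the 59 genes. The RFX half-site GTTGCCA was found in 7 of them (14.9%), and in 1133 of all 27025 genes of the table (4.19%). The forkhead core TGTTTAC was found in 3 (6.38%) and in 3.54% of all genes. Of 38 further axonemal genes with a promoter, 8 held the RFX half-site (21.1%). The 7 genes were Cfap20, Cfap44, Cfap58, Cfap74, Cfap161, Cfap298 and Cfap300. A match is a description of the letters and not a bound site. Of those with a promoter among the 15 genes with the highest mean level, only Cfap44 held the half-site, and it is shown because it holds it 2 times, at 130 and 20 bases before the start, both as the reverse complement TGGCAAC on the plus strand (in capitals). Its window is chr16:44394549-44394798 on the plus strand, upstream of the gene and 5′ to 3′, and holds 0 forkhead cores.
Cfap44: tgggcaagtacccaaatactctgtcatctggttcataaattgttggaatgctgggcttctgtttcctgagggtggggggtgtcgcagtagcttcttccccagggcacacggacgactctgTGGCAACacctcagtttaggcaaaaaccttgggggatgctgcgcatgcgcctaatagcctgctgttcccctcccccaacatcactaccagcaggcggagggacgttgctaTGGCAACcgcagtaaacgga

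The number of ependymal cells limits what can be said across time points. They made up 0.714% and 0.361% of the cells in uninjured WT mice (7 of 980 and 5 of 1384 cells) and 0.962% and 0.969% in uninjured cKO mice (2 of 208 and 12 of 1238). Exact 95% binomial intervals, which cover counting error only, were widest at 0.117% to 3.43% in cKO uninjured replicate 1. The WT mouse at 1 d had 1.46%, and the cKO mice had 2.13% and 1.52%. Mice at 7 d had 2.49% and 0.952% in WT and 1.74% and 1.18% in cKO. At 14 d the share was 2.96% (interval 2.00% to 4.20%) and 2.45% in WT and 0.617% (0.248% to 1.27%) and 1.34% in cKO. All uninjured mice lay under 1%, as did 2 of the 11 injured mice.

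The mean share was 1.71% over the injured and 0.752% over the uninjured mice, higher by 0.961 percentage points (two-sided exact permutation test of 1365 arrangements, p = 0.0242, adjusted over 2 tests 0.0484). This call sits at the threshold. It was lost with the replicate number as a block (adjusted p = 0.0544) and without the 4 libraries that share barcodes (0.822 points, adjusted p = 0.194), and over 20 alternatives the adjusted p ran from 0.0200 to 0.194, with 2 under 0.05. These 2 left out WT 7 d replicate 2 (1.04 points) or cKO 14 d replicate 1 (1.07 points), and with any other mouse left out the difference was between 0.831 and 1.03 points and the call was lost. Between genotypes the means were 1.31% in cKO and 1.61% in WT, a difference of −0.301 points (two-sided exact permutation test within time points, 648 arrangements, p = 0.386). With 1 mouse left out this ran from −0.521 (without WT 1 d replicate 1) to −0.109 points (without WT 7 d replicate 1). A share of cells also depends on how cells survive dissociation, which was not tested.

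**Figure D3:**
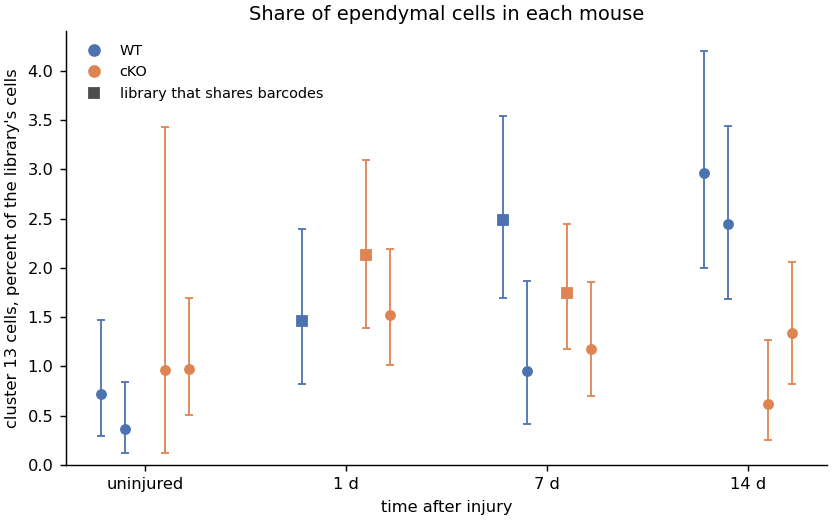
Share of each mouse's cells that are ependymal, in percent, by time point and genotype, with exact 95% binomial intervals and squares for the 4 libraries that share barcodes. The 4 uninjured mice lie between 0.361% and 0.969%, and the 11 injured mice between 0.617% and 2.96%.

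Within ependymal cells, expression over time was tested on UMIs summed per mouse in the 10 mice with at least 10 such cells. Of these, 3 mice each stand for 1 d, 7 d and 14 d, and 1 mouse, cKO uninjured replicate 2, stands for the uninjured state in all 3 contrasts, which therefore share their control. It is also among the mice whose cell names give another condition, WT at 7 d, so these contrasts hold only if the titles are right. The authors' cell table gives this mouse the condition of its title. The spread of that arm is taken from the other groups, so a difference of this 1 mouse cannot be told apart from a change over time, and 0 calls does not show that the genes stayed level. The filter on low counts kept 2853 genes, among them 41 of the 59, of which 37 belong to the 42 at 10-fold or more. The 5 others of these (Cfap53, Cfap58, Cfap73, Cfap300 and Rsph14) were too low to test. At 1 d, edgeR called 0 of the 41 genes at an adjusted p under 0.05, against 0% of all genes tested, and DESeq2 called 0 against 0%. At an unadjusted p under 0.05 edgeR had 1 of 41 genes, against 3.58% of all genes, and DESeq2 0, against 1.86%. At 7 d the calls were again 0 of 41 by edgeR and by DESeq2 (0% of all genes by each), with 5 of 41 at an unadjusted p under 0.05 by edgeR, against 6.17% of all genes, and 3 by DESeq2, against 3.22%. At 14 d edgeR and DESeq2 called 0 of 41 (0% of all genes by each), with 3 of 41 at an unadjusted p under 0.05 by edgeR, against 4.28% of all genes, and 0 by DESeq2, against 1.72%. The median log2 fold changes of the 41 genes were 0.14, 0.43 and 0.40 at 1 d, 7 d and 14 d, beside 0.01, 0.04 and 0.13 over all genes, with median standard errors of 0.76, 0.73 and 0.75.

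The summed level of the 59 genes shows the same spread between mice. Among uninjured mice it was 13117 and 12825 CPM in WT and 22161 and 11676 CPM in cKO, where all but the last rest on 2 to 7 cells. The mice at 1 d had 15797 CPM in WT and 14217 and 13627 CPM in cKO. At 7 d the sums were 19105 and 21399 CPM in WT and 21147 and 20150.5 CPM in cKO. Mice at 14 d had 17856 and 13703 CPM in WT and 25512 and 20546 CPM in cKO. The 4 mice at 7 d lie close together and above those at 1 d, whereas the uninjured mice and those at 14 d span nearly the whole range. No p is given for such a sum over chosen genes.

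Cfap77 had the lowest p of the genes in ependymal cells, and 0.779 was its lowest adjusted p by edgeR (7 d). It was at 104 and 152 CPM in uninjured WT mice and 449.8 and 75.3 CPM in uninjured cKO mice. At 1 d it was at 281 CPM in WT and 263 and 271 CPM in cKO. At 7 d it was at 310.4 and 321 CPM in WT and 410.4 and 396 CPM in cKO, and at 14 d at 201 and 205 CPM in WT and 199.5 and 422 CPM in cKO. The uninjured mouse of the fit, at 3 UMIs and 75.3 CPM, lies below all injured mice, but the uninjured cKO mouse with 2 cells lies above them. The log2 fold changes were 1.71 (standard error 0.78, adjusted p = 1.000 by edgeR), 2.19 (0.76, adjusted p = 0.779) and 2.02 (0.77, adjusted p = 0.974) at 1 d, 7 d and 14 d. Over the alternatives the adjusted p at 7 d ran from 0.200 to 1.00.

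The inner-arm dynein Dnah10 was at 174 and 0 CPM in uninjured WT mice and 164 and 50.2 CPM in uninjured cKO mice. It was at 70.2 CPM in WT and 105 and 165 CPM in cKO at 1 d, at 207 and 306 CPM in WT and 246 and 198 CPM in cKO at 7 d, and at 193 and 155 CPM in WT and 171 and 327 CPM in cKO at 14 d. Mice at 7 d lie above the uninjured mice with a UMI of Dnah10, and those at 1 d overlap them. For WT uninjured replicate 2, with 0 UMIs, the order is not shown, as 3 counts are 228 CPM there. Its log2 fold changes were 1.97 (standard error 0.92, adjusted p = 0.779 by edgeR) at 7 d and 2.32 (0.93, adjusted p = 0.974) at 14 d, against 2 UMIs in the uninjured mouse of the fit. Spag17, Cfap299 and Rsph10b were the other genes at an unadjusted p under 0.05 at 7 d, with log2 fold changes of 1.77, 1.66 and 1.76 (adjusted p = 0.779 each by edgeR), and Rsph10b also at 14 d (1.72, adjusted p = 0.974). They are named after their values were seen. In the uninjured mouse of the fit Cfap299 was at 653 CPM, and in the other uninjured mice at 1492, 683 and 2249 CPM, a range that holds most values of the injured mice (1059 to 2599 CPM).

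The largest fitted value was that of Cfap99, a gene with 60 UMIs in the 10 mice. It had 0 UMIs in the uninjured mouse of the fit, where 3 counts are 75.3 CPM, and 152 and 164 CPM (2 and 4 UMIs) in 2 of the other uninjured mice. Injured mice had 0 to 241 CPM. Its fitted log2 fold changes of 4.99, 6.30 and 5.77 at 1 d, 7 d and 14 d (standard errors 3.97, 3.46 and 3.61, adjusted p = 1.000, 0.786 and 0.974 by edgeR) depend on the count added before the logarithm and are no bounds. Spag8, whose log2 fold change at 1 d was 2.06 (standard error 1.55, adjusted p = 1.000 by edgeR), had 56 UMIs in the ependymal cells of the 10 mice.

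Among the lowest fitted values Cfap36 stood in all 3 contrasts. It was at 208 and 75.9 CPM in uninjured WT mice and 81.8 and 301 CPM in uninjured cKO mice, and the injured mice had 114 to 274 CPM. The uninjured mouse of the fit is thus the highest of the 15 mice, and the other uninjured mice lie among or below the injured. Its log2 fold changes were −1.21 (standard error 0.69, adjusted p = 1.000 by edgeR), −0.79 (0.66, adjusted p = 0.848) and −1.13 (0.70, adjusted p = 0.974). With 1 mouse left out, the value at 14 d ran from −1.31 to −0.50. The other low values, given as log2 fold change and standard error, were those of Cfap20 (−1.03, 0.73) and Dnah1 (−1.02, 1.14) at 1 d. At 7 d they were those of Cfap57 (−1.79, 1.22) and Cfap206 (−0.67, 0.71), and at 14 d Cfap206 (−0.91, 0.74) and Cfap126 (−0.77, 0.80). Their adjusted p lay between 0.815 and 1.000 by edgeR. With 1 mouse left out, Cfap20 ran from −1.27 to −0.61, Dnah1 from −0.99 to −0.94 and Cfap57 from −1.80 to −1.18. Cfap206 ran from −0.84 to −0.33 at 7 d and from −1.15 to −0.65 at 14 d, and Cfap126 from −1.15 to −0.52.

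**Figure D4:**
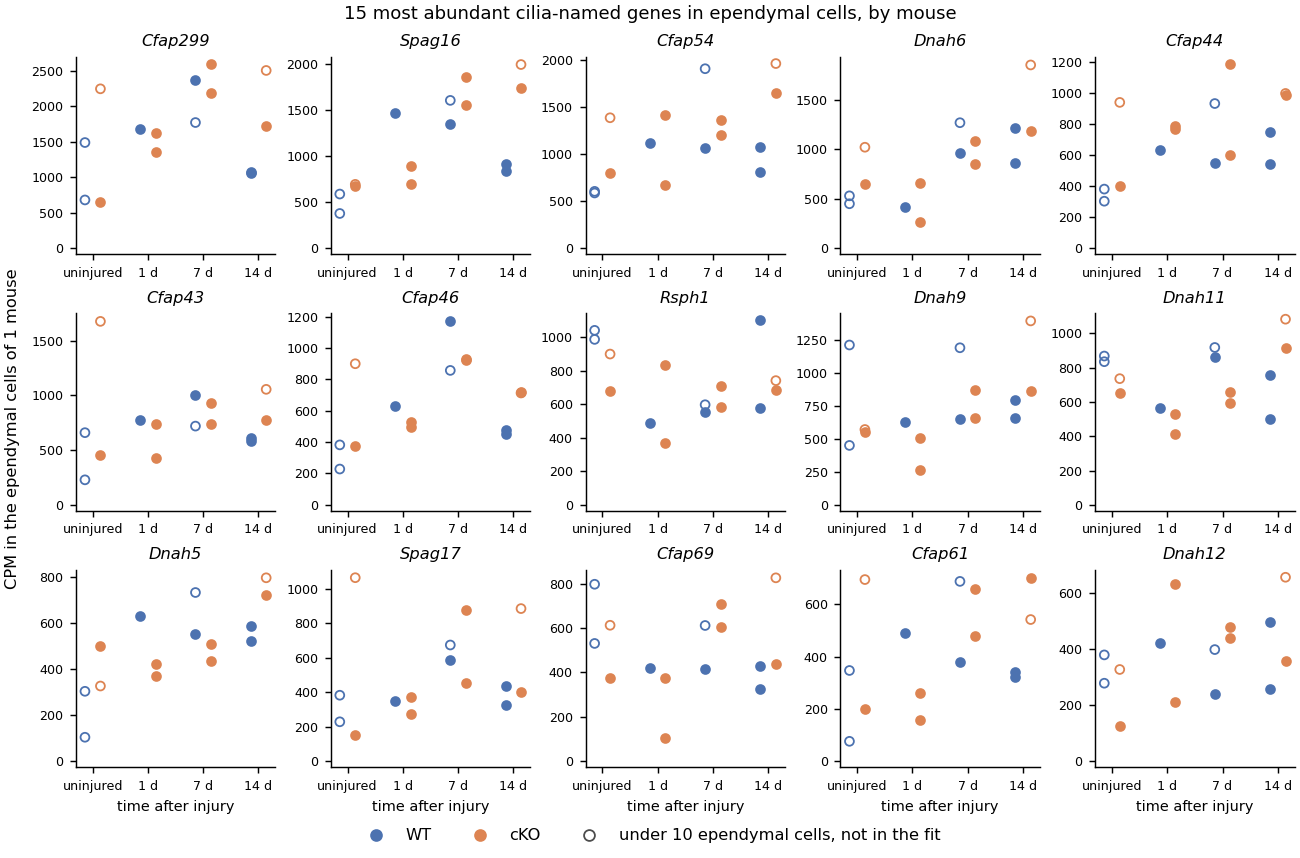
CPM of the 15 genes with the highest mean level in the ependymal cells of each mouse, by time point, for WT and cKO mice. Open circles are mice with under 10 ependymal cells, which were not in the fit, and for Cfap299 the uninjured mice alone span 653 to 2249 CPM.

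The signs of the fitted values by role are given as counts only, as 0 genes were called by edgeR. At 7 d all 7 tested genes of the central apparatus had positive values (median 0.58), as did 6 of 8 dynein heavy chains (median 0.53), while 1 of 5 inner proteins of the doublets did (median −0.17). Tethers and adaptors had 3 of 4 (median 0.79), genes without an assigned place 7 of 9 (median 0.48) and radial spokes 2 of 4 (median −0.06). At 14 d the central apparatus, dyneins and inner proteins had 7 of 7 (median 0.59), 7 of 8 (median 0.53) and 2 of 5 (median −0.52), and at 1 d 6 of 7 (median 0.18), 3 of 8 (median −0.45) and 1 of 5 (median −0.93). Over all 41 genes, 23, 27 and 32 were positive at 1 d, 7 d and 14 d, and these values share the 1 uninjured mouse. Without the 4 libraries that share barcodes, which left 43 of the genes to test, the medians were 0.08, 0.58 and 0.59, where the values at 1 d and 7 d set 1 mouse against 1 mouse. Without the cells with shared barcodes (44 genes) they were 0.06, 0.46 and 0.54. With mice of at least 5 ependymal cells, 3 uninjured mice entered and 30 of the genes were tested, with medians of 0.19, 0.59 and 0.50 and 2, 9 and 5 genes at an unadjusted p under 0.05, all positive but 1 at 1 d, against 7.12%, 15.6% and 9.11% of all 955 genes tested there. The counts of genes called were 0 in each of these by edgeR.

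The other lists had 0 calls by edgeR and 0 by DESeq2 in each contrast over time in ependymal cells. Of 46 further axonemal genes 33 were tested, with medians of 0.15, 0.50 and 0.39 at 1 d, 7 d and 14 d. An unadjusted p under 0.05 was found in 1, 3 and 1 of them, all positive. Of all genes tested by edgeR, 3.58%, 6.17% and 4.28% had such a p. Intraflagellar transport (14 of 21 tested) had medians of −0.41, −0.15 and −0.19 with 0 genes at an unadjusted p under 0.05 in each contrast. The 4 tested regulators had medians of −0.25, 0.41 and 0.55, and the 4 tested assembly factors 0.30, 0.28 and 0.13, each with 0 genes at an unadjusted p under 0.05. Genes of the cell cycle were too low to test, with a summed level of 93.2 to 328 CPM in ependymal cells (median 120.5 CPM, n = 10) and 56.1 to 235 CPM in other cells (median 119 CPM, n = 15).

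Between genotypes, with time points accounted for, edgeR and DESeq2 each called 0 of the 41 genes in ependymal cells (0% of all genes by each). At an unadjusted p under 0.05 there was 1 by edgeR, against 2.42% of all genes, and 1 by DESeq2, against 1.26%. That gene was Cfap47. It was at 347 and 304 CPM in uninjured WT mice and 81.8 and 276 CPM in uninjured cKO mice, and at 1 d at 0 CPM in WT and 211 and 212 CPM in cKO. At 7 d it was at 276 and 214 CPM in WT and 301 and 501 CPM in cKO, and at 14 d at 193 and 262 CPM in WT and 485 and 526 CPM in cKO. The cKO mice lie above the WT mice at 7 d and 14 d. In the uninjured state they lie below them, on 2 and 11 UMIs in cKO and 10 and 4 UMIs in WT. The lower of these cKO mice is under its floor, as 3 counts are 123 CPM there. Of the uninjured mice only cKO replicate 2 was in the fit. At 1 d the order is not shown, as 3 counts are 211 CPM in the WT mouse with 0 UMIs. The log2 fold change of cKO over WT was 1.19 (standard error 0.43, adjusted p = 0.999 by edgeR). Cfap221 (0.87, standard error 0.48) and Dnah10 (0.71, 0.42) were the next highest, and Cfap126 (−0.72, 0.45), Cfap298 (−0.39, 0.52) and Rsph4a (−0.31, 0.42) the lowest, with adjusted p = 0.999 each by edgeR. With 1 mouse left out, Cfap126 ran from −0.94 to −0.37, Cfap298 from −0.65 to −0.12 and Rsph4a from −0.54 to −0.08. The median over the 41 genes was 0.16, beside 0.04 over all genes. Further axonemal genes had a median of 0.11, assembly factors −0.11, regulators 0.07 and intraflagellar transport −0.02.

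In the other cells, 15 mice entered the fit, 4 of them uninjured, and 41 of the 59 genes were among the 16137 tested. Of the 42 genes at 10-fold or more, 27 passed the filter there, and Rsph1, Rsph4a and Dnah12 were among those too low to test. At 1 d edgeR called 0 of the 41 genes, against 0.0620% of all genes, and DESeq2 0 against 0.452%. At an unadjusted p under 0.05 there were 2 by edgeR, against 6.30% of all genes, and 2 by DESeq2, against 7.11%. At 7 d edgeR called 0 against 0.0744% and DESeq2 0 against 1.81%, with 3 genes at an unadjusted p under 0.05 by edgeR, against 10.8% of all genes, and 3 by DESeq2, against 12.8%. At 14 d edgeR called 0 against 0.180% of all genes, while DESeq2 called 2, Spag16 and Spag17, against 1.94%. At an unadjusted p under 0.05 there were 6 genes by edgeR, against 10.9% of all genes, all of them positive, and 8 by DESeq2, against 12.8%. The 3 contrasts share the uninjured mice.

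Spag16, of the central apparatus, had the lowest p of the 41 genes in other cells, at 14 d. It was at 1.64 and 3.80 CPM in uninjured WT mice and 13.3 and 2.60 CPM in uninjured cKO mice. It was at 9.58 CPM in WT and 4.63 and 9.52 CPM in cKO at 1 d, and at 4.83 and 14.2 CPM in WT and 5.83 and 9.30 CPM in cKO at 7 d. The mice at 14 d had 11.2 and 25.6 CPM in WT and 25.7 and 26.2 CPM in cKO. The mice at 14 d lie above the uninjured mice with 1 exception on each side, WT 14 d replicate 1 and cKO uninjured replicate 1. The log2 fold change at 14 d was 2.14 (standard error 0.49, adjusted p = 0.104) by edgeR and 2.10 (0.51, adjusted p = 0.00713) by DESeq2. Over 24 alternatives the log2 fold change was between 1.74 and 2.72 and the adjusted p between 5.84e-05 and 0.827.

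Spag17 was the other gene called at 14 d by DESeq2 and not by edgeR. It was at 0.328 and 1.43 CPM in uninjured WT mice and 2.67 and 1.56 CPM in uninjured cKO mice, at 3.83 CPM in WT and 1.54 and 5.54 CPM in cKO at 1 d, and at 1.61 and 5.73 CPM in WT and 0 and 4.37 CPM in cKO at 7 d. The mice at 14 d had 6.45 and 7.29 CPM in WT and 8.74 and 8.96 CPM in cKO, so that all mice at 14 d lie above all uninjured mice, which together had 9 UMIs. The log2 fold change was 2.35 (standard error 0.68, adjusted p = 0.179) by edgeR and 2.36 (0.67, adjusted p = 0.0325) by DESeq2, and over 24 alternatives 1.72 to 2.58, with adjusted p between 0.00779 and 0.838. The gene overlaps Wdr3 on the opposite strand.

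The remaining genes at an unadjusted p under 0.05 at 14 d were the dyneins Dnah10 (log2 fold change 1.58, standard error 0.58, adjusted p = 0.316 by edgeR), Dnah9 (1.28, 0.56, adjusted p = 0.426) and Dnah2 (0.97, 0.39, adjusted p = 0.365), and Cfap46 (1.37, 0.62, adjusted p = 0.445). Dnah9, Dnah2 and Cfap46 are given here after their values were seen. In other cells Cfap46 was at 3.61 and 2.85 CPM in uninjured WT and 28.0 and 2.08 CPM in uninjured cKO mice, and at 14 d at 14.6 and 25.5 CPM in WT and 13.2 and 24.5 CPM in cKO. The uninjured cKO mouse at 28.0 CPM is the highest of these 8. With 1 mouse left out, the log2 fold change of Cfap46 ran from 1.04 to 2.47. All 10 tested dynein heavy chains had positive values at 14 d (0.68 to 1.58, median 0.95). Of the 6 tested genes of the central apparatus 4 were positive (median 1.01), and of the 3 tested assembly factors 0 (median −0.22). The median over the 41 genes was 0.67, beside −0.03 over all genes, and 0.67 without the 4 libraries that share barcodes (49 genes tested). At 1 d and 7 d the medians were 0.21 and 0.07, beside −0.03 and −0.02, and without those libraries 0.61 and 0.28. The 0.61 describes 1 mouse at 1 d, cKO replicate 2, and without that mouse the median at 1 d was −0.44, so the direction at 1 d rests on it.

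The mix of other cells moved with these values. Neurons (Cluster 3), the cells with the highest levels after cluster 13, made up 9.04% and 9.21% of the other cells in uninjured WT mice and 30.1% and 9.54% in uninjured cKO mice. At 14 d they made up 14.4% and 25.1% in WT and 26.3% and 23.8% in cKO. The summed level of 4 neuron markers in other cells ran from 354 to 8712 CPM over the 15 mice (median 1029 CPM). Within the neurons, which were looked at after the values were seen, Spag16 was at 9.79 and 24.7 CPM in uninjured WT and 17.3 and 14.7 CPM in uninjured cKO mice, from 2 to 6 UMIs each. At 14 d it was at 64.3 and 62.4 CPM in WT and 142 and 88.5 CPM in cKO neurons. The 4 mice at 14 d lie above the 4 uninjured mice, and no test was made. Such levels were not particular to 14 d, as neurons at 7 d had 0 and 67.2 CPM in WT and 84.6 and 56.2 CPM in cKO, and those at 1 d had 0 CPM in WT and 64.2 and 21.3 CPM in cKO, on 0 to 49 UMIs. In the remaining other cells Spag16 was at 1.06, 1.58, 9.92 and 1.16 CPM in the uninjured mice and at 5.28, 12.9, 5.23 and 10.8 CPM at 14 d. Of the markers of ependymal cells, Ccdc153 had 0 UMIs in the neurons of the uninjured mice and was at 2.04 to 3.73 CPM (1 to 8 UMIs) in those at 14 d. The order is not shown, as 1 UMI is 2.89 to 4.94 CPM in the neurons of the uninjured mice. Tmem212 was at 9.79, 0, 2.89 and 4.92 CPM in uninjured and 10.2, 6.52, 8.16 and 3.54 CPM in neurons at 14 d, which overlap. The part of the neurons' share and of RNA from ependymal cells in the values at 14 d was not tested.

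In other cells at 1 d, Rsph3b (log2 fold change 1.10, standard error 0.42, adjusted p = 0.687 by edgeR) and Cfap53 (−3.31, 1.37, adjusted p = 0.748) were the genes at an unadjusted p under 0.05. Cfap53 had 1 UMI in the 3 mice at 1 d, and 11, 0, 4 and 1 UMIs in the 4 uninjured mice. Spag17 (1.49, 0.81) and Dnah10 (1.31, 0.69) were the highest values at 1 d, and Cfap61 (−0.70, 0.76) and Dnah3 (−0.70, 0.80) the next lowest. These values rest on single mice. Without cKO 1 d replicate 2, Dnah10 was at −0.78, Spag17 at 0.74 and Cfap61 at −2.35, and without WT uninjured replicate 1, Dnah3 was at 0.51. At 7 d the genes were Dnah10 (1.51, 0.61, adjusted p = 0.394), Dnah8 (1.05, 0.46, adjusted p = 0.433) and Spag5 (−1.25, 0.55, adjusted p = 0.432). Without a filter on low counts edgeR called Spag5 at 7 d (adjusted p = 0.0344). With the animal number series as a covariate edgeR called it at 7 d (adjusted p = 0.0445) and 14 d (0.0164). Cfap300 (−0.89, 0.52) and Cfap69 (−0.72, 0.56) were the other low values at 7 d, and Spag5 (−0.81, 0.52), Cfap300 (−0.51, 0.47) and Cfap74 (−0.31, 0.37) those at 14 d. Without WT uninjured replicate 2, Spag5 was at −0.62 at 7 d and −0.15 at 14 d and Cfap74 at 0.23. Without cKO uninjured replicate 1, Cfap69 was at −0.10 and Cfap300 at −0.54 at 7 d and −0.19 at 14 d. Dnah8 was at 16.3 CPM in cKO 7 d replicate 2 and at 1.92 to 9.44 CPM in the other 14 mice. With 1 mouse left out, its log2 fold change at 7 d ran from 0.51 to 1.32. By cluster Dnah8 was highest in red blood cells (Cluster 17), at 83.5 CPM (53 UMIs) beside a median of 5.58 CPM over the rest. The part of these cells in the value was not tested. Spag5, the spindle protein, was at 9.85 and 36.1 CPM in uninjured WT and 12 and 22.9 CPM in uninjured cKO mice, and at 13.1 CPM or less in 3 of 4 mice at 7 d, with 16 CPM in cKO replicate 2. By cluster it was highest in the astrocytes of Cluster 7, at 80.2 CPM beside a median of 4.93 CPM over the rest. The part of their number in the values was not tested.

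Between genotypes in other cells, edgeR and DESeq2 called 0 of the 41 genes (0% of all genes by each), with 1 at an unadjusted p under 0.05 by edgeR, against 1.58% of all genes, and 1 by DESeq2, against 1.98%. The gene was Cfap100 (log2 fold change of cKO over WT 1.20, standard error 0.48, adjusted p = 1.000 by edgeR). It was at 2.95 and 0.951 CPM in uninjured WT and 8.00 and 3.64 CPM in uninjured cKO mice, at 3.83 CPM in WT and 6.18 and 7.75 CPM in cKO at 1 d, at 3.22 and 1.68 CPM in WT and 0.833 and 19.9 CPM in cKO at 7 d, and at 4.41 and 7.05 CPM in WT and 7.05 and 8.40 CPM in cKO at 14 d. The cKO mice are at or above the WT mice of their time point except for the lowest value, cKO 7 d replicate 1. Without cKO 7 d replicate 2 the log2 fold change was 0.61. That mouse also had the highest summed level of 2 Schwann cell markers in its other cells, 1610.5 CPM, beside 57.3 to 524 CPM in the other 14 mice, and Schwann cells have the highest level of Cfap100. The part of their number in the value was not tested. Dnah17 (0.74, 0.54) and Cfap61 (0.72, 0.46) were the next highest and Cfap45 (−0.59, 0.42), Spag7 (−0.27, 0.22) and Rsph3a (−0.25, 0.38) the lowest. With 1 mouse left out, Dnah17 ran from 0.45 to 0.97 and Cfap61 from 0.47 to 1.09. Cfap45 ran from −0.69 to −0.42, Spag7 from −0.41 to −0.17 and Rsph3a from −0.35 to −0.02. The median of the 41 genes was 0.17, beside 0.02 over all genes.

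Of the lists, 0 genes were called by edgeR and 0 by DESeq2 in other cells in any of the 4 contrasts. Further axonemal genes, 26 of 46 tested, had medians of 0.11, −0.07 and 0.33 at 1 d, 7 d and 14 d and 0.13 between genotypes. An unadjusted p under 0.05 was found in 1, 0, 7 and 0 of them, the 7 at 14 d all positive. Of all genes tested by edgeR, 6.30%, 10.8%, 10.9% and 1.58% had such a p in the same contrasts. Intraflagellar transport, 21 of 21 tested, had medians of 0.03, −0.14, −0.10 and 0.04, with 0, 1, 0 and 1 such genes. The 4 tested assembly factors had medians of 0.47, 0.42, 0.31 and 0.12 with 0, 0, 1 and 0 such genes, and the 7 tested regulators −0.10, −0.11, 0.12 and 0.03 with 2, 0, 1 and 0. The 14 tested genes of the cell cycle had medians of −0.66, 0.06, −0.25 and 0.23. At 1 d there were 4 such genes, all positive, against 6.30% of all genes, and 0 in the other contrasts.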

How the data were processed

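The authors counted reads with Cell Ranger on mm10 (GRCm38) and clustered the cells in Seurat with R 4.1.2, per the labels. They deposited raw UMI counts per gene and cell, without normalization, and a cell table with the cluster, the batch and the percent of mitochondrial UMIs, which was not used in a comparison. Their cell types were kept, no doublet caller was applied, and free RNA was not removed.

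Counts were summed per mouse over ependymal cells (at least 10 per mouse) and over other cells (at least 50), and tested with edgeR 4.0.16 (TMM, filterByExpr, quasi-likelihood, time point and genotype in 1 model) in R 4.3.3 with Benjamini-Hochberg adjustment over all genes tested and a threshold of 0.05. DESeq2 1.42.0 was an alternative. Shares were compared by two-sided exact permutation. Floors are 3 counts. Python 3.11.15, numpy 2.4.6, pandas 2.3.3, scipy 1.17.1 and matplotlib 3.10.9 did the rest. The tests were tested on simulated data.

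Genes named are the 15 with the highest mean level in ependymal cells, those of at least 20 UMIs under 2-fold, those called, the 3 highest and 3 lowest values of a contrast without calls, and the 5 highest of the lists. The members and lists were chosen with earlier results of these data known. Leaving out cells with shared barcodes, or the 4 libraries that share them, was chosen after seeing the data. Replicate numbers pair mice by batch, as the batch column of the deposited cells repeats them. Deviations of same-numbered mice from their group means in other cells had a median correlation of 0.185 over 21 pairs of groups (−0.383 to 0.473, 12 over 0.1).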

Additional observations from a re-analysis of the deposited data

Results flagged for a closer look

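The share of ependymal cells differed between genotypes in opposite directions at 2 time points. In uninjured mice it was 0.428 percentage points higher in cKO, with both cKO mice above both WT mice, and at 14 d the difference was −1.73 points, with both cKO mice below both WT mice. The difference between these time points was not tested. With the conditions of the cell names, uninjured WT would be 0.714% and uninjured cKO 0.361% and 0.962%, which lie on either side of it, so the direction in uninjured mice depends on the labels. The authors' cell table gives these mice the conditions of their titles. In the other cells of uninjured mice, the summed level of the 42 genes at 10-fold or more was 291 CPM in cKO uninjured replicate 1, far from the 94.1, 112 and 119 CPM of the other uninjured mice, with 0.874 of the range of the 4 mice between it and the nearest. That mouse also had the highest share of neurons among its other cells of the uninjured mice (30.1%), whose part was not tested. In all, 9 checks for such a value were made, each of 1 measure in 1 group of 4 mice. Chance flags about 1 in 20 checks, and these 9 share mice and in part genes, so they are not independent.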

How the results depend on the processing

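Of 969 values of named genes under the alternatives, 954 kept their direction and their side of the threshold, 7 passed the threshold and 8, of Cfap74, Cfap206, Cfap298, Dnah3, Dnah10, Rsph3a and Rsph4a, changed sign without a call. All 42 counts of genes by fold stayed within 1.5 times. The higher share of ependymal cells after injury kept its direction but lost its call in cells of at least 500 UMIs (1.19 points, adjusted p = 0.0586), with the conditions of the cell names (0.972, 0.0835), without cells with shared barcodes (0.843, 0.0791), without the 4 libraries that share them (0.822, 0.194), and with the replicate block (0.961, 0.0544, exact permutation within replicates). With each mouse left out it ran from 0.831 to 1.07 points. The block changed no other call. Among other cells, the calls of 0 became 1 at 7 d without a filter on low counts (Spag5, −1.22, adjusted p = 0.0344, against 2.19% of all genes) and 1 at 7 d and 1 at 14 d with the animal number series as a covariate (Spag5, −1.32, 0.0445, and −1.39, 0.0164, against 0.911% and 2.01%). At 14 d they became 2 of 41 with DESeq2 (Spag16 and Spag17, against 1.94%) and 4 of 59 without the filter (against 2.06%, Spag16, Spag17, Cfap46 and Cfap221, adjusted p = 5.84e-05, 0.00779, 0.0281 and 0.0444 by edgeR). Over the alternatives, adjusted p ran from 0.0344 to 1.000 for Spag5 at 7 d, 0.0164 to 0.982 at 14 d, 0.0281 to 0.978 for Cfap46 and 0.0444 to 0.195 for Cfap221, each named after its values were seen except Spag5. The median over the genes at 1 d in other cells, 0.21, was −0.44 without cKO 1 d replicate 2. The causes were not tested. Without cKO uninjured replicate 2, with at least 20 cells per mouse or with the conditions of the cell names, no uninjured mouse was left in ependymal cells and no contrast over time could be fitted. With 1 uninjured mouse, few ependymal cells and standard errors near 0.75, these libraries limit what could be detected.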
